A study of Mus musculus with 9 samples.

Results

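Dct, Tyrp1, Pmel, Gpnmb, Mitf, Mlph and Myo5a are genes of melanin synthesis, the melanosome and its transport, and they were followed through RNA-seq libraries of 3 mouse tumour lines. The 7 genes were taken by symbol from a table of raw read counts, and all 7 passed the filter on low counts that left 11037 of 11046 genes. B16F10-BrM is labelled a BRAF mutant melanoma, E0771-BrM a triple negative breast cancer and 482N1 a lung NSCLC, and all were untreated with the genotype field given as WT. BrM stands for brain metastatic. B16F10-BrM and 482N1 grew in DMEM and E0771-BrM in RPMI 1640, so a difference between E0771-BrM and either other line cannot be told apart from one of medium. Each line gave 3 poly(A)-selected stranded libraries, A, B and C. Nothing in the labels says that these came from separate cultures, and the p-values then measure only the spread between libraries, which may be technical.

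Melanin is made in the melanosome, an organelle related to the lysosome. MITF is the transcription factor that switches on most pigment genes in melanocytes, and it binds the E-boxes CATGTG and CACGTG. TYRP1 and DCT are enzymes of the eumelanin pathway that act downstream of tyrosinase, PMEL builds the fibrils on which melanin is laid down, and GPNMB is a membrane glycoprotein related to PMEL. Mature melanosomes are held at the cell periphery by a chain of RAB27A on the melanosome, its effector melanophilin (MLPH) and the actin motor myosin Va (MYO5A).

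Total counts were 7332390 to 9293348 per library, and levels are given as normalised CPM, counts scaled by TMM to a common library size. Mitochondrial ribosomal RNA took 1.46% to 4.45% of counts and Rn18s 6.40% to 13.1%. Of the melanocyte markers Tyr, Mlana, Sox10, Slc45a2, Oca2 and Gpr143, 0 of 6 were measured, so the melanocyte label rests here on the 7 genes themselves. Measured means having a row among the genes tested, and a gene without a row may still be expressed. Epithelial markers (2 of 6 measured, Krt8 and Krt18) summed to 0 to 0.125 CPM in B16F10-BrM libraries, 171 to 208 CPM in E0771-BrM and 7289 to 7908 CPM in 482N1. Krt18 had 0 counts in B16F10-BrM. Fibroblast markers (2 of 7 measured, Col1a2 and Pdgfrb) summed to 2.13 to 2.50 CPM in B16F10-BrM, 1.62 to 2.66 CPM in E0771-BrM, and at most 0.120 CPM in 482N1, where Pdgfrb had 0 counts. Counts come from bulk RNA, in which fewer cells of a type and less RNA per cell cannot be told apart.

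The promoters of 3 of the genes are shown because they hold one of the E-boxes to which MITF binds. RefSeq promoter windows (mouse GRCm38.p6) were found for 6 of the 7 genes, in 8 windows since Mitf has 3, and Pmel had no entry. The 250 bases before each start are printed 5′ to 3′ on the gene's strand, with CATGTG (or its reverse complement CACATG) and CACGTG in capitals.
Tyrp1, chr4:80833963-80834212, plus strand: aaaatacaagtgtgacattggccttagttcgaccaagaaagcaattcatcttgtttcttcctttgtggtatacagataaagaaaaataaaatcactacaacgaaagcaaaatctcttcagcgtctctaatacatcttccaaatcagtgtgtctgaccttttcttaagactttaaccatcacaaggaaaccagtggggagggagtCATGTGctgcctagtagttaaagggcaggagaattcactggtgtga
Dct, chr14:118052247-118052496, minus strand: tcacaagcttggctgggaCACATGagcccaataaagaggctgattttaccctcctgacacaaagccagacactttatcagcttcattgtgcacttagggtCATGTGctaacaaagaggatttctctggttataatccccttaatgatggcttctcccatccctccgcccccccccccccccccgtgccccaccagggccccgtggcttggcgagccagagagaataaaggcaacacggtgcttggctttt
Mlph, chr1:90914850-90915099, plus strand: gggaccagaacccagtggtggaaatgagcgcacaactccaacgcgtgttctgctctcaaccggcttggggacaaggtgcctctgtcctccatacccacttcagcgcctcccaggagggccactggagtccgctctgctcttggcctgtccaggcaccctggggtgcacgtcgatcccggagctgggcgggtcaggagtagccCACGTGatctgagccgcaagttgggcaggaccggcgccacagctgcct

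Positions are given for the end of a motif nearest the start. In the Tyrp1 window CATGTG ended 41 bases before the start and was preceded by T, which makes TCATGTG, the core of the element known as the M-box. Dct held it 145 bases before the start and, on the other strand, 227 bases before, and both copies were TCATGTG as well. In the Mlph window CACGTG lay 43 bases before the start, and with the next base it read TCACGTG on the other strand. Both strands were searched, and the longer motifs overlap the shorter ones by construction. CATGTG was in a window of 2 of the 6 genes searched and of 13.8% of all 27025 genes with windows of this length, and TCATGTG of 2 of 6 and 3.72%. CACGTG was in a window of 1 of 6 genes and 6.86% of all, TCACGTG of 1 of 6 and 3.58%, and the general E-box CANNTG of 5 of 6 and 69.3%. The 3 Mitf windows, Gpnmb and Myo5a held neither CATGTG nor CACGTG in these 250 bases. The starts are RefSeq's, and another annotation (GENCODE M21) places some of them elsewhere. There Tyrp1 begins at 80834123, Mlph at 90915085 and Myo5a at 75071015, each inside its window. Part of these windows, with the Tyrp1 motif, thus lies within the gene by that annotation. The 3 Mitf windows also reach into or lie within their gene there. A match is a description of these letters and not a binding site.

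**Figure D1:**
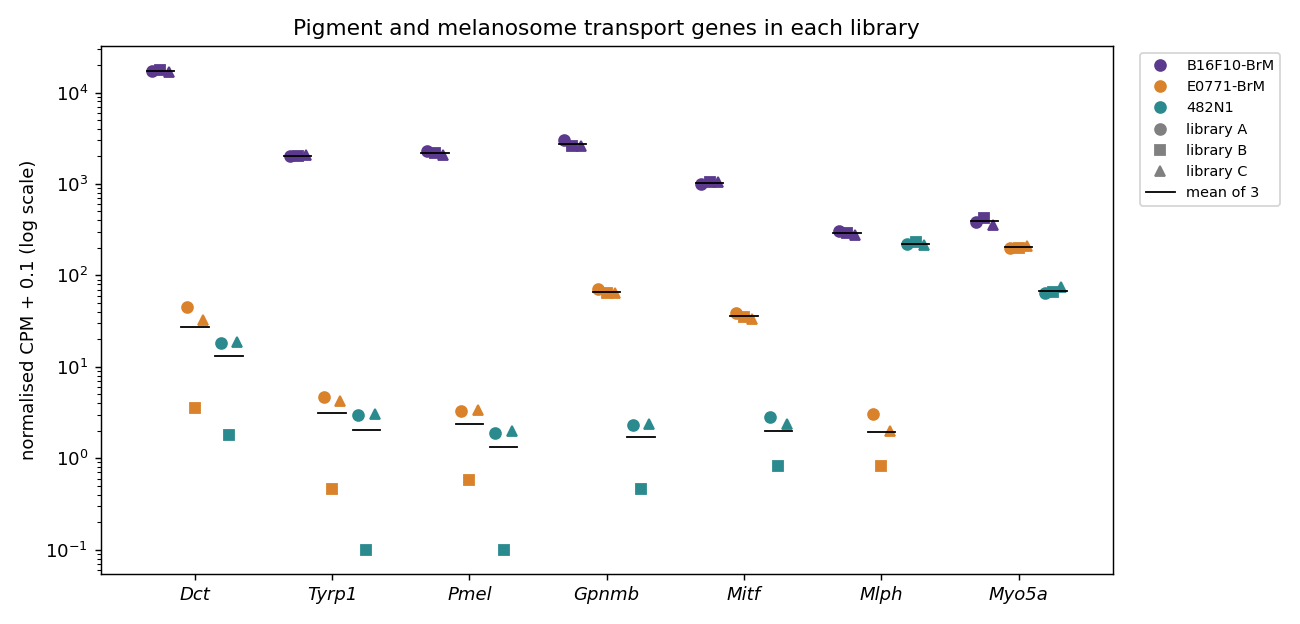
Normalised CPM plus 0.1 (log scale) of the 7 genes in each library of B16F10-BrM, E0771-BrM and 482N1, with library A, B or C as the marker and the mean of 3 as the line. The B16F10-BrM libraries lie above all others for every gene, Mlph is close to them in 482N1, and library B lies far below A and C for Dct, Tyrp1 and Pmel in both other lines.

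All 7 genes were higher in B16F10-BrM than in either other line. Their libraries did not overlap for 7 of 7 against 482N1, beside 78.7% of all genes tested (38.4% with B16F10-BrM higher), and for 7 of 7 against E0771-BrM, beside 75.5% of all genes (37.3% with B16F10-BrM higher). By edgeR's quasi-likelihood test with Benjamini-Hochberg adjustment over 11037 genes, 7 of 7 were higher against 482N1, where 77.8% of all genes were called, 38% higher and 39.9% lower. Against E0771-BrM 7 of 7 were higher too, where 73.7% of all genes were called, 36.5% higher and 37.2% lower. The median log2 fold change of the 7 was 10.07 against 482N1 and 7.30 against E0771-BrM, beside -0.036 and -0.018 over all genes. Between E0771-BrM and 482N1, 3 of 7 were higher (Gpnmb, Mitf and Myo5a), Mlph was lower and Dct, Tyrp1 and Pmel did not pass, where 78.1% of all genes were called, 37.7% higher and 40.4% lower. The libraries of these lines did not overlap for 4 of 7, beside 78.5% of all genes, and the median was 1.07 beside -0.044 over all genes. The comparisons share libraries, so their values stand side by side and are not independent of each other.

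Mitf, on chromosome 6, encodes the regulator. Mitf had 999, 1041 and 1048 CPM in B16F10-BrM libraries A, B and C, 38.6, 35.0 and 33.3 CPM in E0771-BrM, and 2.71, 0.722 and 2.28 CPM in 482N1. The 3 lines formed 3 separate steps with no overlap. Mitf was higher in B16F10-BrM than in 482N1 by 9.09 ± 0.14 on the log2 scale (SE, adjusted p = 4.72e-41) and than in E0771-BrM by 4.85 ± 0.10 (adjusted p = 1.88e-36). E0771-BrM exceeded 482N1 by 4.23 ± 0.17 (adjusted p = 4.45e-25). Mitf is the member of the MITF-TFE family of basic helix-loop-helix factors used by melanocytes, and its relatives Tfe3 and Tfeb, which drive lysosome genes, took other orders of the lines. Tfe3 was 25.1 ± 2.46 CPM in B16F10-BrM, 19.6 ± 2.32 CPM in E0771-BrM and 40.4 ± 2.67 CPM in 482N1 (SD, n = 3 each), and was lower in B16F10-BrM than in 482N1 by a log2 fold change of -0.68 ± 0.12 (adjusted p = 1.16e-06). Against E0771-BrM it was higher by 0.36 ± 0.13 (adjusted p = 0.0105), a call that was lost without B16F10-BrM library A (adjusted p = 0.0597) or E0771-BrM library A (adjusted p = 0.0545). Tfeb was 7.60 ± 1.45 CPM in B16F10-BrM, 1.15 ± 0.434 CPM in E0771-BrM and 6.33 ± 1.22 CPM in 482N1. It was higher in B16F10-BrM than in E0771-BrM by 2.70 ± 0.30 (adjusted p = 5.39e-11), and its difference from 482N1 was 0.26 ± 0.23 (adjusted p = 0.293). Tfec, the fourth relative, was not analysed here.

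Dct, on chromosome 14, encodes dopachrome tautomerase, and was the most abundant of the 7 in B16F10-BrM. Dct had 17121, 17680 and 16847 CPM in B16F10-BrM libraries A, B and C, or 1.81%, 1.88% and 1.77% of all counts there. It had 44.8, 3.48 and 32.8 CPM in E0771-BrM and 18.3, 1.68 and 18.8 CPM in 482N1. The B16F10-BrM libraries had a CV of 2.47%, while library B of each other line lay below A and C, whose mean was 38.8 CPM in E0771-BrM, 11.1 times library B, and 18.5 CPM in 482N1. The log2 fold change of Dct was 10.40 ± 0.92 against 482N1 (adjusted p = 3.97e-05) and 9.33 ± 0.86 against E0771-BrM (adjusted p = 5.58e-05). The difference between E0771-BrM and 482N1 was 1.07 ± 0.92 (adjusted p = 0.323), and their libraries overlapped.

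Tyrp1, on chromosome 4, encodes tyrosinase-related protein 1, which acts in eumelanin synthesis beside DCT. Tyrp1 had 2004, 2024 and 2085 CPM in B16F10-BrM libraries A, B and C, 4.57, 0.36 and 4.11 CPM in E0771-BrM (36, 3 and 33 counts), and 2.84, 0 and 2.92 CPM in 482N1 (22, 0 and 23 counts). Library B was again the lowest in both lines. Tyrp1 was higher in B16F10-BrM than in 482N1 by 10.07 ± 0.48 on the log2 scale (adjusted p = 1.10e-06), or by 9.46 without 482N1 library B. It was higher than in E0771-BrM by 9.41 ± 0.46 (adjusted p = 1.31e-06). E0771-BrM and 482N1 differed by 0.66 ± 0.96 (adjusted p = 0.556).

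Pmel, on chromosome 10, encodes the amyloid of the melanosome matrix. Pmel had 2269, 2155 and 2067 CPM in B16F10-BrM libraries A, B and C, 3.17, 0.48 and 3.24 CPM in E0771-BrM (25, 4 and 26 counts), and 1.81, 0 and 1.90 CPM in 482N1 (14, 0 and 15 counts). As for Tyrp1 and Dct, library B was the lowest in both lines other than the melanoma line. The log2 fold change was 10.78 ± 0.40 against 482N1 (adjusted p = 2.38e-07), or 10.18 without 482N1 library B, and 9.89 ± 0.38 against E0771-BrM (adjusted p = 2.86e-07). E0771-BrM and 482N1 differed by 0.90 ± 0.90 (adjusted p = 0.391). Pmel overlaps Cdk2 and Dgka on the opposite strand in the mouse annotation (GRCm38), and whether counting used strand is not given in the sources used here, so reads of these genes cannot be told apart with certainty. Cdk2, a cell cycle kinase and a known MITF target, was 201 ± 13.6 CPM in B16F10-BrM, 22.9 ± 2.04 CPM in E0771-BrM and 9.38 ± 1.62 CPM in 482N1. Mitf overlaps Gm15531 in the same way.

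Gpnmb, on chromosome 6, encodes a melanosomal and lysosomal glycoprotein that macrophages and osteoclasts also make. Gpnmb had 3031, 2585 and 2583 CPM in B16F10-BrM libraries A, B and C, 70.7, 63.3 and 64.0 CPM in E0771-BrM, and 2.19, 0.361 and 2.28 CPM in 482N1. Like Mitf, it formed 3 steps with no overlap. The log2 fold change was 10.74 ± 0.19 against 482N1 (adjusted p = 3.00e-20) and 5.37 ± 0.12 against E0771-BrM (adjusted p = 4.42e-18), and E0771-BrM exceeded 482N1 by 5.36 ± 0.21 (adjusted p = 2.18e-14). Of myeloid and osteoclast markers 2 of 10 were measured, Cd68 and Cd14, and they summed to 0.502 to 0.625 CPM in B16F10-BrM libraries, 21.9 to 27.3 CPM in E0771-BrM and 24.7 to 34.2 CPM in 482N1. Cd14 had 0 counts in B16F10-BrM. Cd68 was 15.8 ± 2.00 CPM in E0771-BrM and 2.51 ± 0.981 CPM in 482N1, in the direction of Gpnmb and Mitf, and Cd14 was 9.00 ± 0.801 CPM in E0771-BrM against 27.2 ± 3.78 CPM in 482N1, the other way. The part of such cells in the Gpnmb and Mitf values of E0771-BrM was not tested.

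Mlph, on chromosome 1, encodes melanophilin, the linker between RAB27A and myosin Va, and was the gene of the 7 whose level in another line came closest to that in B16F10-BrM. Mlph had 303, 289 and 276 CPM in B16F10-BrM libraries A, B and C, 2.92, 0.720 and 1.87 CPM in E0771-BrM (23, 6 and 15 counts), and 221, 230 and 215 CPM in 482N1. B16F10-BrM and 482N1 stood side by side without overlap, 1.30-fold apart in means, and E0771-BrM lay far below both. The log2 fold change was 0.38 ± 0.08 against 482N1 (adjusted p = 6.22e-05), which did not pass a test against a 2-fold change (adjusted p = 1). Against E0771-BrM it was 7.30 ± 0.15 (adjusted p = 9.41e-37). Between E0771-BrM and 482N1 it was -6.92 ± 0.15 (adjusted p = 8.60e-36), with 482N1 higher by 121-fold in means.

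Myo5a, on chromosome 9, encodes the myosin Va heavy chain, which also carries cargo in neurons. Myo5a had 381, 430 and 357 CPM in B16F10-BrM libraries A, B and C, 200.62, 200.01 and 210 CPM in E0771-BrM, and 64.4, 66.2 and 73.6 CPM in 482N1. All 3 lines held it at 499 counts or more per library, and the lines formed separate steps with no overlap. The log2 fold change was 2.51 ± 0.08 against 482N1 (adjusted p = 4.70e-31) and 0.93 ± 0.08 against E0771-BrM (adjusted p = 1.55e-15), which did not pass the test against a 2-fold change (adjusted p = 1). E0771-BrM exceeded 482N1 by 1.58 ± 0.08 (adjusted p = 8.44e-23).

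**Figure D2:**
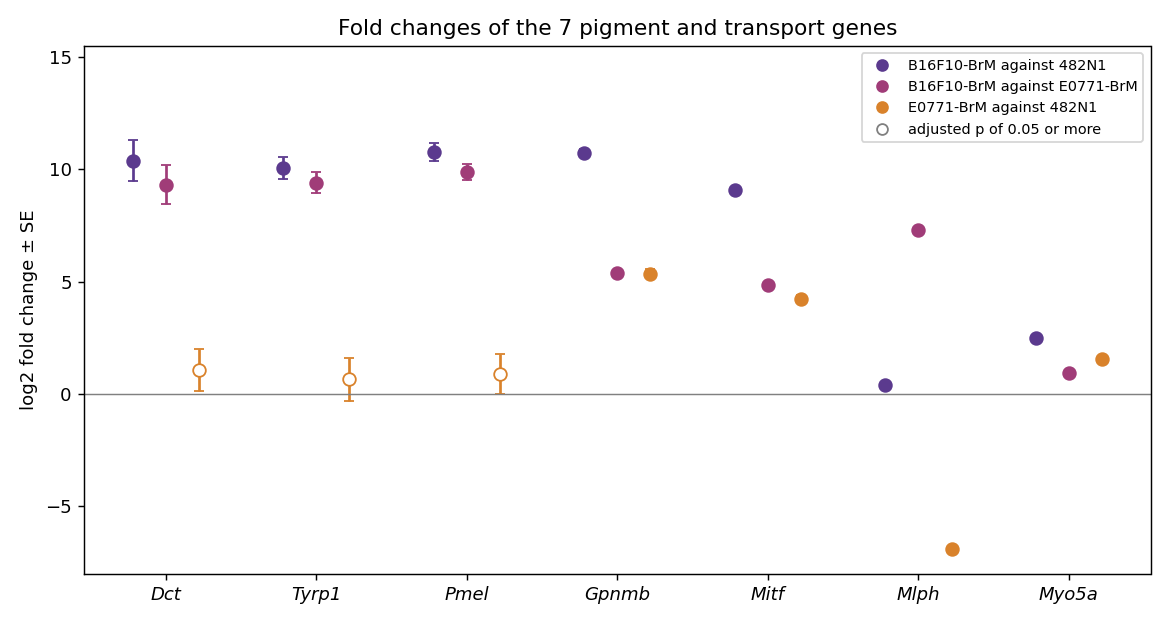
Log2 fold change ± SE (edgeR) of the 7 genes in each comparison of 2 lines, with open symbols where the adjusted p was 0.05 or more. The SE was derived from the F statistic of each test. Dct, Tyrp1 and Pmel sit between 9.33 and 10.78 in both comparisons of B16F10-BrM and are open between E0771-BrM and 482N1, and Mlph runs from 7.30 to -6.92.

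Divided by exon length, the order of the levels within B16F10-BrM was Dct, Pmel, Tyrp1, Gpnmb, Mitf, Mlph and Myo5a. On the scale of normalised CPM per kilobase of exon (GENCODE M21), Dct was at 7818, Pmel at 1016 and Tyrp1 at 749 in that line. Gpnmb was at 605, Mitf at 194, Mlph at 64.3 and Myo5a at 33.0. The enzymes and the matrix protein were thus far above the transport genes, and the longest coding transcript of each gene in place of all exons gave the same order in B16F10-BrM. In E0771-BrM, Myo5a was at 17.3 CPM per kilobase, Gpnmb at 14.6 and Dct at 12.3, but per kilobase of the longest coding transcript Gpnmb (17.8) stood just above Myo5a (17.4). Per kilobase of exon, Mlph led in 482N1 at 49.3, with Dct at 5.87 and Myo5a at 5.78.

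Set against the B16F10-BrM mean, the levels in the other lines differed in how evenly they spread over the libraries. In E0771-BrM libraries A, B and C, Dct was at 0.260%, 0.0202% and 0.190% of that mean, Tyrp1 at 0.224%, 0.0177% and 0.202%, and Pmel at 0.147%, 0.0222% and 0.150%. In 482N1, Dct was at 0.106%, 0.00979% and 0.109%, Tyrp1 at 0.139%, 0% and 0.143%, and Pmel at 0.0835%, 0% and 0.0879%. For these genes library B was lower by several-fold, and Gpnmb and Mitf did the same in 482N1 alone. Gpnmb was at 2.59%, 2.32% and 2.34% in E0771-BrM, against 0.0802%, 0.0132% and 0.0835% in 482N1. Mitf was at 3.75%, 3.40% and 3.23% in E0771-BrM, against 0.263%, 0.0701% and 0.222% in 482N1. Mlph in E0771-BrM was at 1.009%, 0.249% and 0.646%. The values that differ little between libraries are those of Gpnmb and Mitf in E0771-BrM, Mlph in 482N1 at 74.4% to 79.3%, and Myo5a at 51.4% to 54.1% in E0771-BrM and 16.5% to 18.9% in 482N1.

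**Figure D3:**
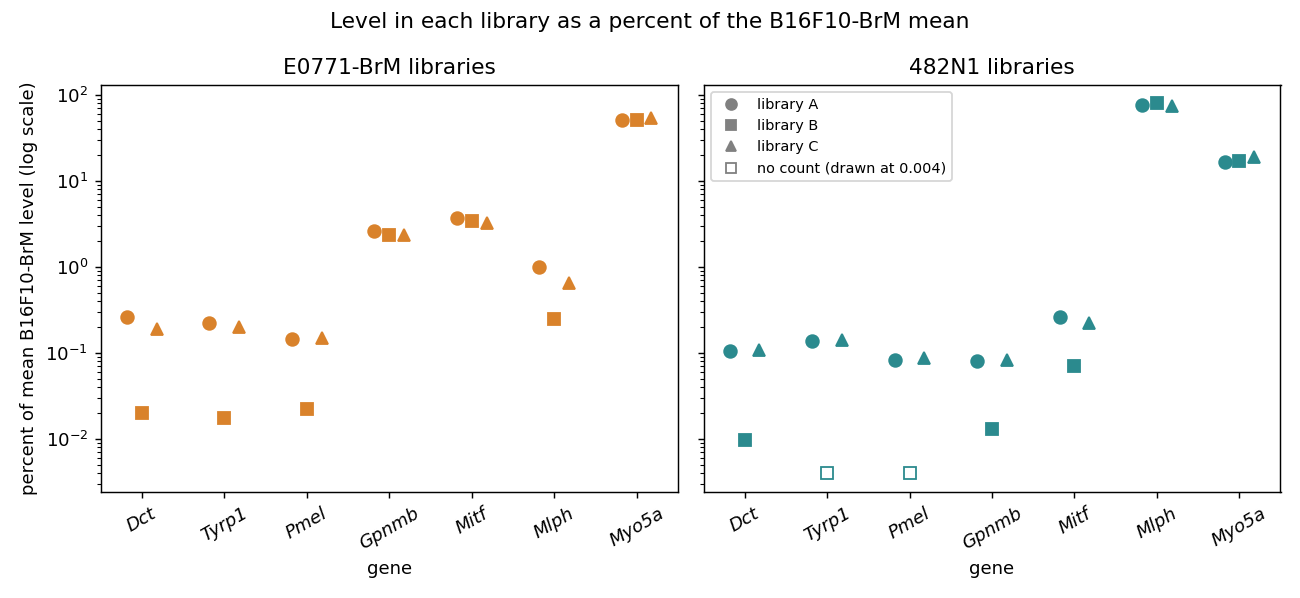
Level of each gene in each E0771-BrM and 482N1 library as a percent of the mean B16F10-BrM level (log scale), with open squares for libraries with no count. Library B lies below A and C for Dct, Tyrp1 and Pmel in both lines, at 0% to 0.0222%, and Gpnmb and Mitf lie at 2.32% to 3.75% in all 3 E0771-BrM libraries.

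Library B was the lowest of the 3 for 6 of the 7 genes in E0771-BrM and for 5 of 7 in 482N1. The share of all genes lowest in library B was not counted, and the size of the gap varied widely. In E0771-BrM the mean of A and C was only 1.03 times library B for Myo5a and 1.06 times for Gpnmb. For Dct it was 11.1 times and for Tyrp1 12.1 times. Taking library B alone, the B16F10-BrM mean of Dct was 4948 times that of E0771-BrM and 10217 times that of 482N1, and that of Tyrp1 was at least 5643-fold higher and that of Pmel at least 5992-fold higher than in 482N1, against a floor of 3 counts in that library. Taking library A alone, the ratio of Dct was 384 to E0771-BrM and 940 to 482N1, and the ratios to 482N1 were 718 for Tyrp1 and 1198 for Pmel. The size of these folds thus differed several-fold between libraries of 1 line, while B16F10-BrM was higher in each. Other genes with at least 500 CPM in B16F10-BrM and under 1% of that mean in E0771-BrM numbered 6, and their median was 0.331%, 0.0626% and 0.259% of it in E0771-BrM libraries A, B and C, with B lowest in 5 of 6. For 482N1 there were 7 such genes, at medians of 0.211%, 0.138% and 0.189%, with B lowest in 5 of 7. In the opposite direction, 11 genes high in 482N1 stood at medians of 0.0114%, 0.00549% and 0.00935% in B16F10-BrM libraries, with B lowest in 3 of 11. Of these, Ankrd1, Anxa3, Krt18 and Wfdc2 had 0 counts in every B16F10-BrM library, so B could not be lowest for them. The 1 such gene high in E0771-BrM, S100a6, stood at 0.0702%, 0.0338% and 0.0576% in B16F10-BrM libraries, with B lowest. In E0771-BrM libraries, 10 genes high in 482N1 stood at medians of 0.0442%, 0.0150% and 0.0460%, with B lowest in 7 of 10. What the libraries share that could give such shares was not tested. With only library B kept for E0771-BrM and 482N1, and with the spread of each lone library taken from that of the melanoma line, the log2 fold change between E0771-BrM and 482N1 was 7.40 for Gpnmb, 5.57 for Mitf and -8.29 for Mlph. In the same fit B16F10-BrM exceeded 482N1 by 12.83 for Gpnmb and 10.45 for Mitf, and exceeded E0771-BrM by 8.62 for Mlph. In that fit the log2 fold change of Dct between E0771-BrM and 482N1 was 1.04, from 29 and 14 counts. The fitted folds of Pmel and Tyrp1 there depend on the prior count, since 482N1 library B had 0 counts of both. Another test, limma-voom, gave log2 fold changes against 482N1 of 11.03 for Dct, 11.36 for Tyrp1 and 11.85 for Pmel, and against E0771-BrM of 9.99 for Dct and 10.01 for Tyrp1, all called.

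The profiles of the 7 genes over the 9 libraries can be compared as the root mean square distance of centred log2 CPM, in which 0 means the same differences between libraries. Dct, Tyrp1 and Pmel were close to each other, with Dct and Tyrp1 at 0.232, Tyrp1 and Pmel at 0.313 and Dct and Pmel at 0.334. Gpnmb and Mitf were 0.744 apart, and Mlph and Myo5a, partners in transport, were 3.63 apart. Among genes other than the 7, the nearest to their mean profile were Gm10040 (0.498), Gm42566 (0.500), Sirt5 (0.597), Nrcam (0.726) and Cryab (0.812), followed by Nckap5l, Ckb, Gm38194, Pdzrn3 and Fam53b (0.998). That mean averages genes up to 5.46 apart (Gpnmb and Mlph). Of the genes nearest to it, only Gm10040 was among the 3 nearest to any single gene of the 7, namely Dct, Tyrp1 and Pmel. Outside the 7, Syt4 was the nearest to each of Dct (0.883), Tyrp1 (0.832) and Pmel (0.759). It had 1180 CPM in B16F10-BrM, 3.33 CPM in E0771-BrM and 0.934 CPM in 482N1. Also outside the 7, Zfp575 was the nearest to Gpnmb (0.351), Gm48368 to Mitf (0.397), Pogk to Mlph (0.200) and Cep135 to Myo5a (0.0924). These distances describe the 9 libraries only.

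Genes that work beside the 7 were counted by function, without the 7 themselves. For every group, the share over all genes tested was 38% higher and 39.9% lower in B16F10-BrM against 482N1. It was 36.5% and 37.2% against E0771-BrM, and 37.7% and 40.4% for E0771-BrM against 482N1. Of the melanocyte transcription regulators, 9 of 17 were measured, Mitf among them, and of the other 8, 4 were higher and 4 lower in B16F10-BrM, both against 482N1 and against E0771-BrM. Tfap2a, a neural crest factor that works with MITF, was 66.4 ± 3.16 CPM in B16F10-BrM, 25.3 ± 1.93 CPM in E0771-BrM and 0.577 ± 0.334 CPM in 482N1. Zeb2, which supports melanocyte differentiation, was 142 ± 2.93 CPM in B16F10-BrM, 43.2 ± 4.39 CPM in E0771-BrM and 24.6 ± 0.495 CPM in 482N1. Both took the order of lines seen for Mitf, and both passed in each comparison. Sox9, a SOX-family factor active in melanocytes and in many epithelia, went the other way at 29.8 ± 1.17 CPM in B16F10-BrM, 53.1 ± 7.26 CPM in E0771-BrM and 645 ± 36.2 CPM in 482N1. Its log2 fold change was -4.44 ± 0.09 against 482N1 (adjusted p = 2.82e-39). Zeb1 and Id1 were lower by more, with 2 and 18 counts over the B16F10-BrM libraries. They had 1327 and 1348 counts in E0771-BrM, and 1399 and 4636 in 482N1. Sox5 was higher in B16F10-BrM, with 1056 counts there, 728 in E0771-BrM and 2 in 482N1.

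In pigment chemistry, 7 genes beside Dct and Tyrp1 were measured, of which 5 were higher and 1 lower in B16F10-BrM against 482N1, with the same counts against E0771-BrM. The median log2 fold change of these genes was 0.35 and 0.99. The 5 higher genes were not the same in the 2 comparisons, since Atox1 passed only against 482N1 and Ggh only against E0771-BrM. Ggh had 257 counts in B16F10-BrM, 0 in E0771-BrM and 187 in 482N1. Atp7a and Slc31a1, which carry copper, the metal of tyrosinase, were higher in both comparisons. Atp7a, the copper pump, was 76.2 ± 5.73 CPM in B16F10-BrM, 38.2 ± 1.40 CPM in E0771-BrM and, in 482N1, 25.9 ± 0.804 CPM, and Slc31a1, the copper importer, was 80.3 ± 2.90 CPM in B16F10-BrM, 25.8 ± 1.54 CPM in E0771-BrM and 27.4 ± 1.80 CPM in 482N1. Atox1, the copper chaperone, was 99.5 ± 13.9 CPM in B16F10-BrM, 98.2 ± 3.17 CPM in E0771-BrM and, in 482N1, 49.2 ± 5.28 CPM. Its log2 fold change against E0771-BrM was 0.02 ± 0.09 (adjusted p = 0.836). The lower gene was Slc7a11, the cystine importer whose cargo feeds pheomelanin, at 7.99 ± 1.58 CPM in B16F10-BrM, 37.6 ± 8.61 CPM in E0771-BrM and 16.4 ± 2.97 CPM in 482N1. Of genes of the melanosome matrix and ion transport, 6 beside Pmel and Gpnmb were measured, of which 5 were higher and 1 lower against 482N1, and 2 higher and 3 lower against E0771-BrM. Cd63, which helps sort PMEL in the melanosome, was 1383 ± 54.5 CPM in B16F10-BrM, 706 ± 23.6 CPM in E0771-BrM and 323 ± 12.8 CPM in 482N1. Apoe, which acts with PMEL in fibril formation, was 522 ± 53.2 CPM in B16F10-BrM, 1.86 ± 0.584 CPM in E0771-BrM and 19.3 ± 4.78 CPM in 482N1.

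Of the BLOC and AP-3 complexes, which sort cargo to the melanosome, 31 of 35 genes were measured, and 12 were higher and 11 lower against 482N1, and 15 higher and 8 lower against E0771-BrM. Dtnbp1, dysbindin of BLOC-1, was 148 ± 12.0 CPM in B16F10-BrM, 24.3 ± 2.36 CPM in E0771-BrM and, in 482N1, 14.0 ± 1.75 CPM, and Hps1 of BLOC-3 was 10.8 ± 2.204 CPM in B16F10-BrM, 28.4 ± 1.80 CPM in E0771-BrM and also 28.4 ± 2.96 CPM in 482N1. The median log2 fold change of this group was 0.12 and 0.25, beside -0.036 and -0.018 over all genes. Rab32, which directs pigment enzymes to the melanosome, had 584 counts over the B16F10-BrM libraries, 1 in E0771-BrM and 5 in 482N1, and the ratio to E0771-BrM was 541 (95% counting interval 96.8 to 21412).

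Of the transport machinery around RAB27A, 29 genes beside Mlph and Myo5a were measured, of which 10 were higher and 11 lower against 482N1, and 12 higher and 11 lower against E0771-BrM. Rab27a itself was not analysed here. Rab27b, its closest relative, had 2 counts over the B16F10-BrM libraries against 122 in E0771-BrM and 488 in 482N1, so that the level in 482N1 was 266 times that in B16F10-BrM, with a 95% counting interval of 73.4 to 2206. Both counts were in B16F10-BrM library A, and without it the level in 482N1 was at least 112-fold higher and that in E0771-BrM at least 27.8-fold higher, against a floor of 3 counts over libraries B and C. Chm, the escort protein that allows RAB27A to be prenylated, was also lower in B16F10-BrM, at 23.6 ± 1.33 CPM against 110 ± 3.39 CPM in E0771-BrM and 69.8 ± 2.11 CPM in 482N1. Higher there were Myo7a, a myosin that moves melanosomes in the retinal pigment epithelium, at 58.3 ± 2.23 CPM against 3.80 ± 0.599 CPM in E0771-BrM and, in 482N1, 3.89 ± 1.31 CPM, and Plekhm2, which links ARL8 vesicles to kinesin-1, at 87.1 ± 7.56 CPM against 23.4 ± 0.901 CPM in E0771-BrM and 10.4 ± 0.507 CPM in 482N1. Kif5b, the kinesin-1 heavy chain, was 1276 ± 66.0 CPM in B16F10-BrM, 694 ± 27.8 CPM in E0771-BrM and 463 ± 24.5 CPM in 482N1. The formin Fmn1, which builds actin tracks with SPIRE proteins, was 114 ± 9.94 CPM in B16F10-BrM, 45.5 ± 2.97 CPM in E0771-BrM and 33.4 ± 6.91 CPM in 482N1. Spire1 was 35.1 ± 4.22 CPM in B16F10-BrM, 39.6 ± 2.76 CPM in E0771-BrM and 27.2 ± 3.88 CPM in 482N1. Spire2 was lower in B16F10-BrM, at 0.710 ± 0.295 CPM against 6.42 ± 1.40 CPM in E0771-BrM and 7.82 ± 1.31 CPM in 482N1.

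**Figure D4:**
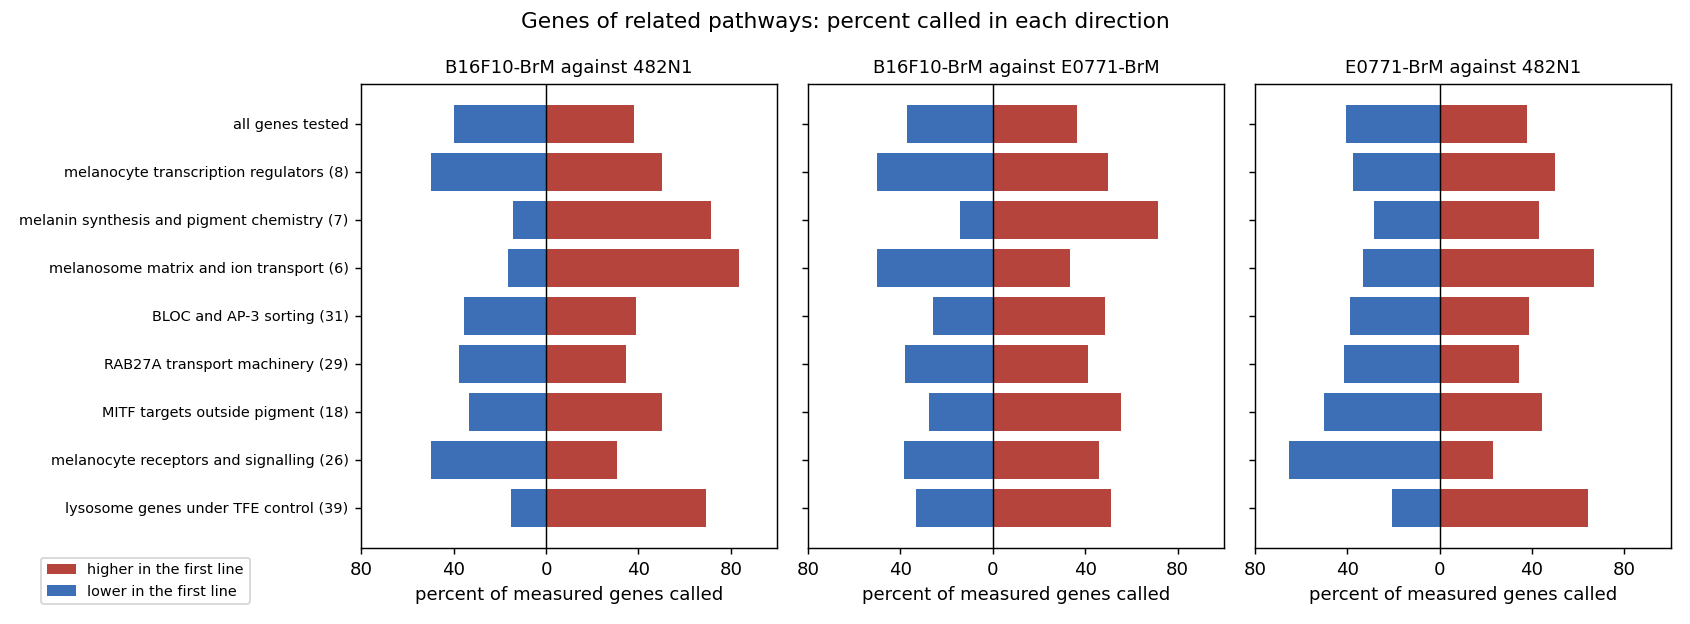
Percent of measured genes called higher (right) or lower (left) in the first-named line of each comparison, for groups of related genes without the 7 (number measured in brackets) and for all genes tested. For B16F10-BrM against 482N1, all genes lie at 38% higher and 39.9% lower, beside 12 higher and 11 lower of 31 for BLOC and AP-3 sorting and 10 higher and 11 lower of 29 for RAB27A transport.

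Of MITF targets outside pigment, 18 of 29 were measured, and 9 were higher and 6 lower in B16F10-BrM against 482N1, and 10 higher and 5 lower against E0771-BrM. Between E0771-BrM and 482N1, 8 of the 18 were higher and 9 lower, where 37.7% of all genes were higher and 40.4% lower. Whether these counts follow Mitf was not tested. Met, the receptor of hepatocyte growth factor, was 606 ± 43.0 CPM in B16F10-BrM, 205 ± 11.3 CPM in E0771-BrM and 124 ± 5.17 CPM in 482N1. Rragd, a lysosomal GTPase that MITF activates in melanoma, was 11.5 ± 0.778 CPM in B16F10-BrM, 14.7 ± 2.67 CPM in E0771-BrM and 0.334 ± 0.0708 CPM in 482N1. Its difference between E0771-BrM and 482N1 was 5.39 ± 0.33 (adjusted p = 3.74e-20), and B16F10-BrM differed from E0771-BrM by -0.35 ± 0.18 (adjusted p = 0.0688), which passed without E0771-BrM library B (adjusted p = 0.0183). Asah1, acid ceramidase, was lower in B16F10-BrM at 24.7 ± 1.82 CPM against 51.4 ± 2.04 CPM in E0771-BrM and 139 ± 13.3 CPM in 482N1.

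Lysosome genes under control of the MITF-TFE family were measured for 39 of 44, and 27 were higher and 6 lower in B16F10-BrM against 482N1, with a median log2 fold change of 0.74. Against E0771-BrM 20 were higher and 13 lower (median 0.26), and between E0771-BrM and 482N1 25 were higher and 8 lower (median 0.55). Naglu, a lysosomal enzyme of heparan sulfate breakdown, was 117 ± 13.6 CPM in B16F10-BrM, 9.30 ± 0.693 CPM in E0771-BrM and 24.99 ± 5.40 CPM in 482N1. Between E0771-BrM and 482N1 it went against Mitf and most of the group. Of melanocyte receptors and signalling genes, 26 of 40 were measured, of which 8 were higher and 13 lower against 482N1, and 12 higher and 10 lower against E0771-BrM. Kitl, the ligand of KIT that surrounding cells supply to melanocytes, had 13 counts in B16F10-BrM (0.489 ± 0.126 CPM) against 104 ± 9.80 CPM in E0771-BrM and 287 ± 21.2 CPM in 482N1. Etv5, a transcription factor downstream of ERK signalling, was 2.76 ± 0.716 CPM in B16F10-BrM against 30.8 ± 1.24 CPM in E0771-BrM and 47.3 ± 5.27 CPM in 482N1.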

How the data were processed

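The deposited values are raw counts of reads, 1 row per gene symbol, for 9 libraries, which the authors made from poly(A)-selected TruSeq libraries, per the labels' protocols. The submitters' processing notes name FastQC, TopHat2 2.0.10, Bowtie 1.0.0, SAMtools 0.1.19, Cufflinks 2.2.1 and GRCm39. The counting tool, annotation, strand setting and choice of the 11046 genes are not given in the sources used here.

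Counts were fitted in R 4.3.3 with edgeR 4.0.16 (filterByExpr, TMM, robust quasi-likelihood, 1 coefficient per line over all 9 libraries), with 2-sided tests and Benjamini-Hochberg adjustment over 11037 genes at a threshold of 0.05. The common dispersion was 0.0059. The procedure was run on simulated counts with few genes changed, in 1 line, and the same dispersion for every gene. That setting has neither as many differing genes as these lines nor the wide library spread of Dct, Tyrp1 and Pmel. It therefore does not test the procedure under those conditions. Levels are mean ± SD of 3 libraries, and fold changes are fitted coefficients ± SE. Here SE is the absolute log2 fold change divided by the square root of the quasi-likelihood F statistic. It restates the test of that comparison, is not the standard error of the coefficient, and cannot be combined across comparisons. Where a line had 0 counts the floor was 3 counts, and a gene with 1 to 3 counts has an exact binomial 95% interval, which covers counting error only. Alternatives used DESeq2 1.42.0 and its size factors, upper-quartile factors, limma 3.58.1 (voom), other filters, glmTreat against a 2-fold change, removal of ribosomal RNA genes, the library letter as a block, only the lines compared, only library B of E0771-BrM and of 482N1, and each library left out.

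The 7 genes, the related gene groups and the alternatives were chosen with earlier results of these data known. Named were the 7 genes, genes of those groups, the 10 genes nearest to the mean profile and the 3 nearest to each gene (log2 CPM, prior count 2), with a selection printed. Promoter sequences are RefSeq's (GRCm38.p6), while exon lengths and overlaps are GENCODE's, both from an earlier build than the authors'. Protein sequences were not used here.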

Additional observations from a re-analysis of the deposited data

How the results depend on the processing

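The 7 genes kept their direction and side of the threshold in 416 of 420 comparisons with an alternative. Against a 2-fold change (glmTreat), Mlph between B16F10-BrM and 482N1 and Myo5a between B16F10-BrM and E0771-BrM no longer passed, which follows from testing against a larger fold. With only library B of E0771-BrM and of 482N1, Dct and Pmel changed side of the threshold between these lines. That fit had 1 library of each line and took its spread from the B16F10-BrM libraries alone. Its calls between E0771-BrM and 482N1 therefore hold no spread of these lines. They rest on 29 against 14 counts for Dct and 4 against 0 for Pmel. The glmTreat test called 3477 genes for B16F10-BrM against 482N1, 2905 for B16F10-BrM against E0771-BrM and 3342 for E0771-BrM against 482N1, in place of 8592, 8131 and 8622. Leaving out 1 library gave 8233 to 8600, 7780 to 8191 and 8282 to 8615 called genes, with 7, 7 and 4 of the 7 genes called each time. The library letter as a replicate block gave 8595, 8162 and 8623 called genes and changed no call of the 7 genes. Over all genes, deviations of same-letter libraries correlated at -0.0099 to 0.0898 over 9 pairs, beside -0.0752 to 0.0370 for pairs of different letters. Each B16F10-BrM library correlated best with its own letter in E0771-BrM (0.0679, 0.0898 and 0.0239), but this did not hold for every pair of lines. Dct, Tyrp1 and Pmel were lowest in library B of both E0771-BrM and 482N1. Of 1320 comparisons over related genes, 1302 kept direction and threshold side, 17 lost the threshold and 1 gained it. Leaving out 482N1 library B moved Tfap2a to 7.38 against 482N1, and only library B moved it to 6.09, beside 6.79. At these depths a count of 0 in 1 library allows up to 3 counts, or 0.360 to 0.387 CPM, in E0771-BrM and 482N1.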
